A study of Mus musculus with 24 samples.

Results

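A set of 89 genes, of 22926 gene symbols counted, fell when WT mouse embryonic stem cells (ESCs) were grown without LIF and stayed near their starting level in Tet2-/- ESCs. Levels were taken as log2(CPM + 1), where CPM are counts scaled to a library total of 1000000, and averaged per genotype and day. The genes were chosen by a change of at most -1.5 between day 6 (D6) and day 0 (D0) in WT and a change from -0.5 to 0.99 in Tet2-/-, so the WT and Tet2-/- values chose them and are given below as a description with no test. Of the 474 genes past the WT threshold, these 89 are 18.8%, the other 385 fell by more than 0.5 in Tet2-/-, and 0 lay over the upper bound.

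The study sequenced poly(A) RNA of 24 ESC libraries in culture with LIF (D0) and after 6 days without it (D6). WT was represented by 3 clones, O4.1, O4.2 and O4.13, and Tet2-/- by clones Tet2_KO_3.10 and Tet2_KO_3.11, each sampled on both days. Tet1-/- had clones 2.1, 2.3 and 2.4 at D0 and 2.1, 2.2 and 2.4 at D6. DKO cells (Tet1-/- and Tet2-/-) were clones DKO_5.11 and DKO_5.12, and TKO cells (Tet1-/-, Tet2-/- and Tet3-/-) were clones TKO_8.4 and TKO_8.12. All lines, the WT included, derive from 1 parental clone of a 129/SVj-derived line with eGFP knocked in at Pou5f1, and each knockout is a set of CRISPR indel clones, so clone-to-clone differences within a genotype are the only replication. Library totals were 18400463 to 37290208 counts, so 3 counts correspond to 0.0805 to 0.163 CPM. Differences between genes in CPM also reflect transcript length, and levels of single genes are therefore compared only within a gene. Summed levels are compared between libraries and are weighted towards the genes with high CPM.

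LIF is a cytokine that acts through its receptor and STAT3, and feeder-free mouse ESC cultures depend on it for self-renewal. Pou5f1 and Sox2 encode the transcription factors at the core of the pluripotency network, and a set of naive factors such as Esrrb and Klf4 is lost as the cells move towards an epiblast-like state. TET enzymes oxidise 5-methylcytosine to 5-hydroxymethylcytosine and further products and so open a path to DNA demethylation. Tet1 and Tet2 are both abundant in ESCs, while promoters of many germline genes are kept silent by DNA methylation in somatic cells.

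The thresholds cut through a continuous range. The members nearest the WT threshold were Ccnb1ip1, Kat2b and Gm11837, each with a WT change of -1.51, and the nearest genes outside it were Pou4f1 at -1.499, Atcay at -1.49 and Nptx2 at -1.49. At the Tet2-/- lower bound the members Mov10l1 (-0.49), C430002E04Rik (-0.49) and Tcf15 (-0.48) lay just inside, and Mcf2 (-0.51), Aire (-0.53) and Fam78a (-0.53) just outside. The highest Tet2-/- changes among the members were 0.70 for Gm13242, 0.65 for Gm13247 and 0.63 for D630023F18Rik, far from the upper bound. With each single WT or Tet2-/- library left out in turn, 41 members met the rule every time. Pou5f1, Gdf3 and Tcf15 were among those that dropped out without Tet2_KO_3.11 at D6. Sox2 dropped out without WT O4.1 or without WT O4.13 at D6.

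WT clone O4.2 stood apart from the other WT clones at D6. Over the 89 genes, the median change between days was -2.26 in O4.1, -2.13 in O4.13 and -1.40 in O4.2. The summed level of the 89 genes at D6 was 1609.6 CPM in O4.1, 1816 CPM in O4.13 and 3801 CPM in O4.2. Without O4.2 at D6 the same rule returned 138 genes, which included all 89. In Tet2-/- the sum was 6595 CPM in Tet2_KO_3.10 and 7182 CPM in Tet2_KO_3.11, while every library at D0 held between 7629 and 8700.2 CPM. The other knockouts lay between the lowest WT clones and Tet2-/-: 2042 to 5130.3 CPM in Tet1-/-, 3104 and 3404 CPM in DKO, and 2745 and 4146 CPM in TKO.

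Markers of other cells also differed between the D6 libraries. At D6 the summed level of 18 primitive streak and mesoderm genes was 158 and 112 CPM in Tet2_KO_3.10 and Tet2_KO_3.11, with 1 gene at 0 in each, against 1183, 1443 and 474 CPM in WT O4.1, O4.13 and O4.2. Tet1-/- clones 2.1, 2.2 and 2.4 held 942, 1612 and 447 CPM, DKO_5.11 and DKO_5.12 held 621 and 450.0 CPM, and TKO_8.12 and TKO_8.4 held 602 and 272 CPM. Within WT, Tet1-/- and TKO, the clone with the highest sum of the 89 genes (O4.2, 2.4 and TKO_8.4) was the clone with the lowest mesoderm sum, whereas in DKO clone DKO_5.11 was the higher in both. Summed levels of 16 endoderm markers were 366 and 422 CPM in Tet2-/- and 636 to 1279 CPM elsewhere at D6. The sums of 12 trophectoderm markers were 183 and 159 CPM in Tet2-/- and 490 to 1253 CPM elsewhere, those of 14 smooth muscle and stromal markers 1521 and 1530.3 CPM against 1836 to 5786 CPM, and those of 12 neuroectoderm markers 350 and 341 CPM against 242 to 343 CPM. The part of these markers in the results was not tested, and in bulk RNA fewer cells of a type and less RNA per cell cannot be told apart.

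**Figure D1:**
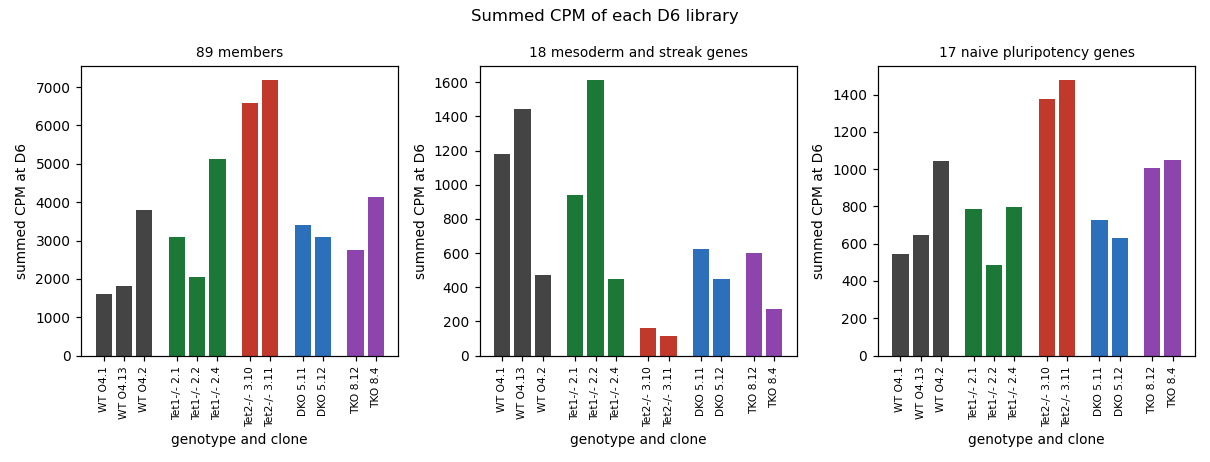
Bars give the summed CPM of each D6 library (1 bar per clone, coloured by genotype) for the 89 genes, for 18 primitive streak and mesoderm genes and for 17 naive pluripotency genes. Both Tet2-/- clones (6595 and 7182 CPM) have the highest sums of the 89 genes, which their selection set, and the lowest mesoderm sums (158 and 112 CPM).

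Not every member was held at an ESC level in Tet2-/-. At D0, 64 of the 89 genes had a Tet2-/- mean within 0.5 log2 unit of WT, while 9 were already at least 1 log2 unit lower in Tet2-/- at D0. These were Tet2 itself (-2.07), Dazl (-2.02), Mageb16 (-1.64), D630023F18Rik (-1.26), 4930591A17Rik (-1.22), Tex11 (-1.03), Ccdc113 (-1.03), Stk31 (-1.004) and Gm13247 (-1.001). At D6 the Tet2-/- mean was at least 1 log2 unit above WT for 75 members, but less than 0.5 above it for Tet2, Dazl, 4930591A17Rik, Ccdc113 and Gm11837, and 0.35 below it for Mageb16. Those 6 genes, apart from Gm11837, were among the 9 already low in Tet2-/- at D0. Gm11837 was at -0.61 against WT at D0 and lay near both thresholds, with changes of -1.51 in WT and -0.48 in Tet2-/-. With a pseudocount of 0.1 CPM, 4930591A17Rik, Gm11837 and Mageb16 no longer met the rule. Both Tet2-/- libraries lay above every WT library at D6 for 82 of the 89 genes and for 266 of the 385 other genes past the WT threshold. The same held for the Tet1-/- libraries at 10 members and 25 of those 385 other genes, for DKO at 38 members and 99 other genes, and for TKO at 33 members and 136 other genes.

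**Figure D2:**
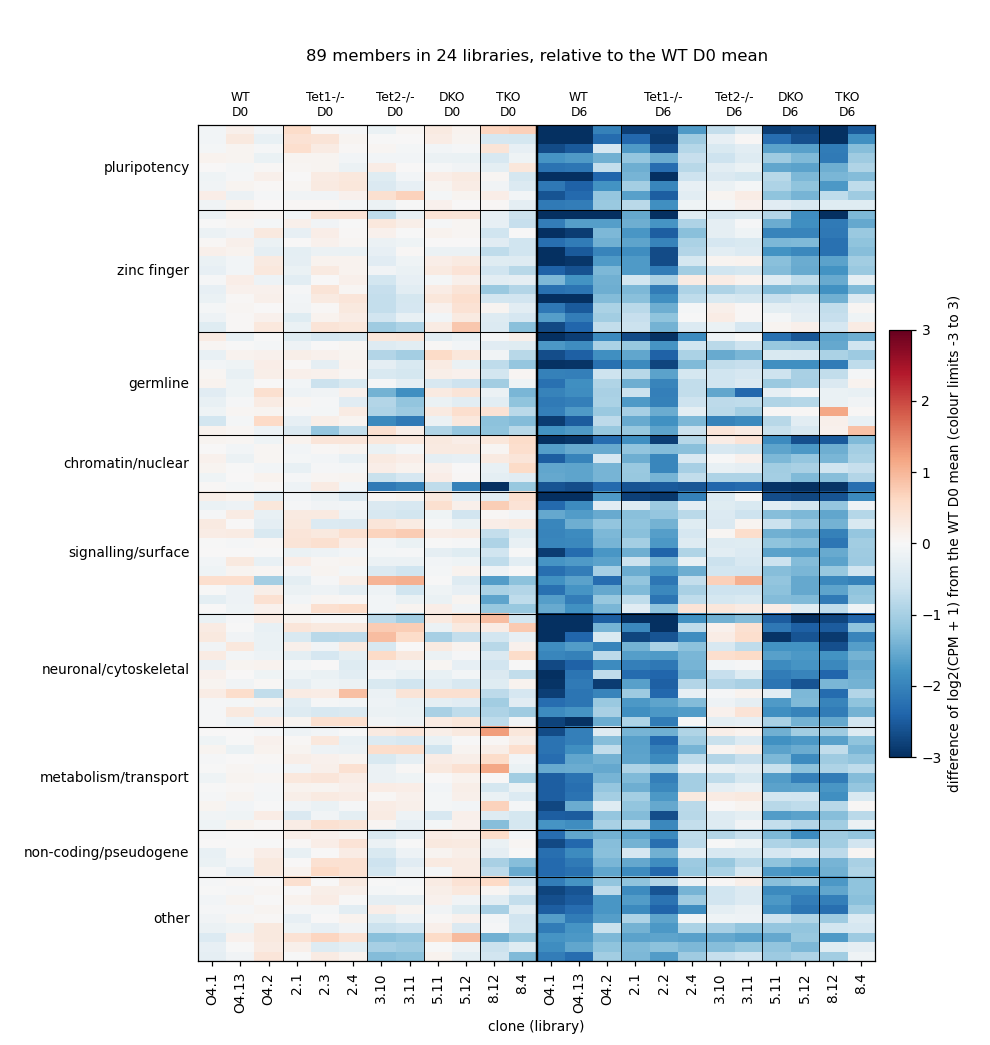
Each row is 1 of the 89 genes, grouped by role, and each column 1 of the 24 libraries (D0 left, D6 right), with colour giving the difference of log2(CPM + 1) from the WT D0 mean. At D6 WT clones O4.1 and O4.13 are blue in nearly all rows (median change -2.26 and -2.13) and O4.2 is paler (-1.40), while the Tet2-/- columns stay near the D0 colours.

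The remaining knockouts did not enter the choice of members and could be tested, which asked whether the 89 genes were also held in cells that lack Tet1, Tet1 and Tet2, or all of Tet1, Tet2 and Tet3. They were not held as a group: 79 of the 89 (88.8%) fell in Tet1-/-, 71 (79.8%) in DKO and 47 (52.8%) in TKO. A gene was called when edgeR's quasi-likelihood test gave an adjusted p under 0.05 (Benjamini-Hochberg over 15639 genes tested) and the fitted log2 change exceeded 1 in size. Of all tested genes, 11.2% were called lower in Tet1-/-, 10.6% in DKO and 8.63% in TKO. All 89 genes passed the filter on low counts, which a gene high at D0 passes whatever its D6 level. The members were picked for falling in WT cells of the same parental line, so their shares are given as the extent of the fall in each knockout and not as support for the set. In the direction of an increase, 0 members were called in Tet1-/- (19.9% of all genes), 0 in DKO (18.6%) and 1, Gm4975, in TKO (16.8%). At an unadjusted p under 0.05 with the same fold threshold the counts of higher members were 0, 0 and 2, and DESeq2 gave 0, 0 and 2. In TKO 2 were called higher with the clone as a block, and also without TKO_8.12 at D0, WT O4.2 at D6 or WT O4.1 at D6.

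On the scale used for selection, WT and Tet2-/- lay at medians of -1.85 and -0.26 over the 89 genes, and Tet1-/-, DKO and TKO at -1.45, -1.32 and -0.94. Over the other 385 genes the medians were -2.11 (WT), -1.38 (Tet2-/-), -2.05 (Tet1-/-), -1.87 (DKO) and -1.304 (TKO). A change of at most -1 on this scale was reached by 83.1% of the 89 genes in Tet1-/-, 73.0% in DKO and 46.1% in TKO. Of the other 385 genes, 97.4%, 92.2% and 66.8% reached it in the same order. For Tet1-/-, DKO and TKO the fitted edgeR medians of the 89 were -1.68, -1.72 and -1.15, and those of all tested genes 0.00, -0.01 and 0.01. Clones differed within a genotype. The median change was -1.42 in Tet1-/- clone 2.1 and -0.89 in clone 2.4, -1.23 and -1.49 in DKO_5.11 and DKO_5.12, and -0.62 and -1.19 in TKO_8.4 and TKO_8.12. Without TKO_8.12 at D6 the number called lower in TKO dropped from 47 to 21.

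**Figure D3:**
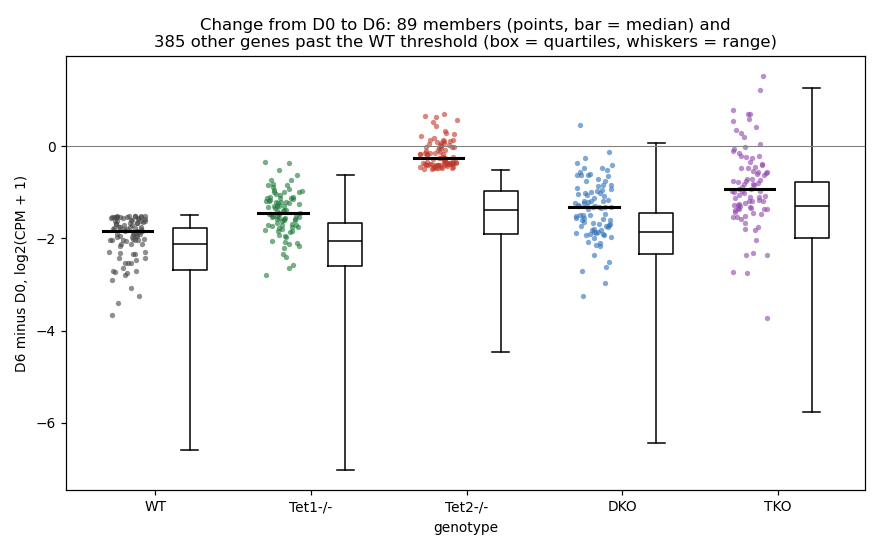
The vertical axis is D6 minus D0 in log2(CPM + 1) from genotype means; points are the 89 genes with their median as a bar, and boxes give quartiles and range of the 385 other genes past the WT threshold. The WT and Tet2-/- points are bounded by the selection, while the medians of the 89 genes in Tet1-/- (-1.45), DKO (-1.32) and TKO (-0.94) lie between the WT and Tet2-/- medians.

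Among the 89 genes, 9 have roles in pluripotency: Pou5f1, Sox2, Utf1, L1td1, Dppa2, Dppa4, Gdf3, Foxd3 and Tcf15. Of the 9, 8 were called lower in Tet1-/-, 8 in DKO and 7 in TKO. Pou5f1, the gene whose locus carries the eGFP reporter, was at 827, 674 and 817 CPM at D0 and 224, 284 and 236 CPM at D6 in WT clones O4.1, O4.2 and O4.13. In Tet2_KO_3.10 and Tet2_KO_3.11 it was at 726 and 732 CPM at D0 and 499 and 586 CPM at D6. At D6 it stood at 345, 275 and 476 CPM in Tet1-/- clones 2.1, 2.2 and 2.4, at 366 and 307 CPM in DKO_5.11 and DKO_5.12, and at 365 and 177 CPM in TKO_8.4 and TKO_8.12. Both Tet2-/- libraries were thus above every other D6 library, although Tet1-/- clone 2.4 (476 CPM) came close to Tet2_KO_3.10 (499 CPM). The fitted change of Pou5f1 was -1.302 (SE 0.20, edgeR adjusted p = 2.09e-05) in Tet1-/-, -1.22 (SE 0.25, adjusted p = 0.000438) in DKO and -1.40 (SE 0.25, adjusted p = 0.00016) in TKO.

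Sox2, the HMG-box partner of Oct4, was at 643 to 690.3 CPM at D0 in WT and at 144, 408 and 149 CPM at D6 in O4.1, O4.2 and O4.13. In Tet2-/- it was at 781 and 677 CPM at D0 and 535 and 587 CPM at D6. The WT clone O4.2 held more Sox2 at D6 than any Tet1-/- (137 to 374 CPM), DKO (228 and 220.0 CPM) or TKO library (357 and 244 CPM). Sox2 fell by 1.61 on the log2 scale in Tet1-/-, by 1.72 in DKO and by 1.39 in TKO (edgeR adjusted p = 0.000415, 0.00185 and 0.00872). Utf1, a chromatin-associated factor of undifferentiated cells, showed the same WT split, with 91.7, 416 and 102 CPM at D6 in O4.1, O4.2 and O4.13 against 429 and 478 CPM in Tet2-/-. Its fitted changes were -2.03 in Tet1-/-, -1.77 in DKO and -1.92 in TKO, all called lower.

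Foxd3 and Tcf15, a forkhead and a bHLH factor of the epiblast, had the steepest falls of these 9 genes in every other knockout. Foxd3 was at 46.0 and 56.0 CPM in Tet2-/- at D6, against 4.51, 10.1 and 3.56 CPM in WT O4.1, O4.2 and O4.13. It was at 9.93, 6.57 and 25.4 CPM in Tet1-/- 2.1, 2.2 and 2.4, at 10.3 and 7.98 CPM in DKO and at 14.4 and 1.28 CPM in TKO_8.4 and TKO_8.12. Tcf15 was at 45.1 and 56.3 CPM in Tet2-/- at D6 and did not exceed 22.2 CPM in any other D6 library. The fitted changes of Tcf15 were -2.84 in Tet1-/-, -3.30 in DKO and -3.95 in TKO, and those of Foxd3 -2.47, -2.94 and -2.44, all called lower by edgeR. With 1 library left out, the TKO change of Foxd3 ran from -5.03 to -1.60 and that of Tcf15 from -4.61 to -3.51.

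L1td1, an RNA-binding protein of LINE-1 origin, was higher at D6 than at D0 in both Tet2-/- clones, at 709 and 772 CPM against 596 and 679 CPM. It was at 182, 232 and 149 CPM at D6 in WT O4.1, O4.2 and O4.13, and Tet1-/- clone 2.4 held 679 CPM against 393 and 207 CPM in clones 2.1 and 2.2. Dppa2 and Dppa4 encode SAP-domain proteins that bind chromatin as partners. Dppa4 at D6 was at 66.3 and 75.6 CPM in Tet2-/-, at 54.5 and 50.1 CPM in DKO and at 53.2 and 53.8 CPM in TKO, above WT (15.1, 31.3 and 15.8 CPM) in each. It was the only member of these 9 called in none of the other knockouts, with fitted changes of -0.99 in Tet1-/-, -0.68 in DKO and -0.42 in TKO, and in Tet1-/- it missed the fold threshold alone (edgeR adjusted p = 0.00699). Dppa2 was called lower in each, with -1.79, -1.53 and -1.33, and no test compared the pair. Gdf3, a TGF-beta family ligand, was at 119 and 132 CPM in Tet2-/- at D6 and was called lower in Tet1-/- (-1.39) and DKO (-1.54), and not in TKO (-1.15, edgeR adjusted p = 0.05), where it was called with the clone as a block (-1.15, adjusted p = 0.0105).

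**Figure D4:**
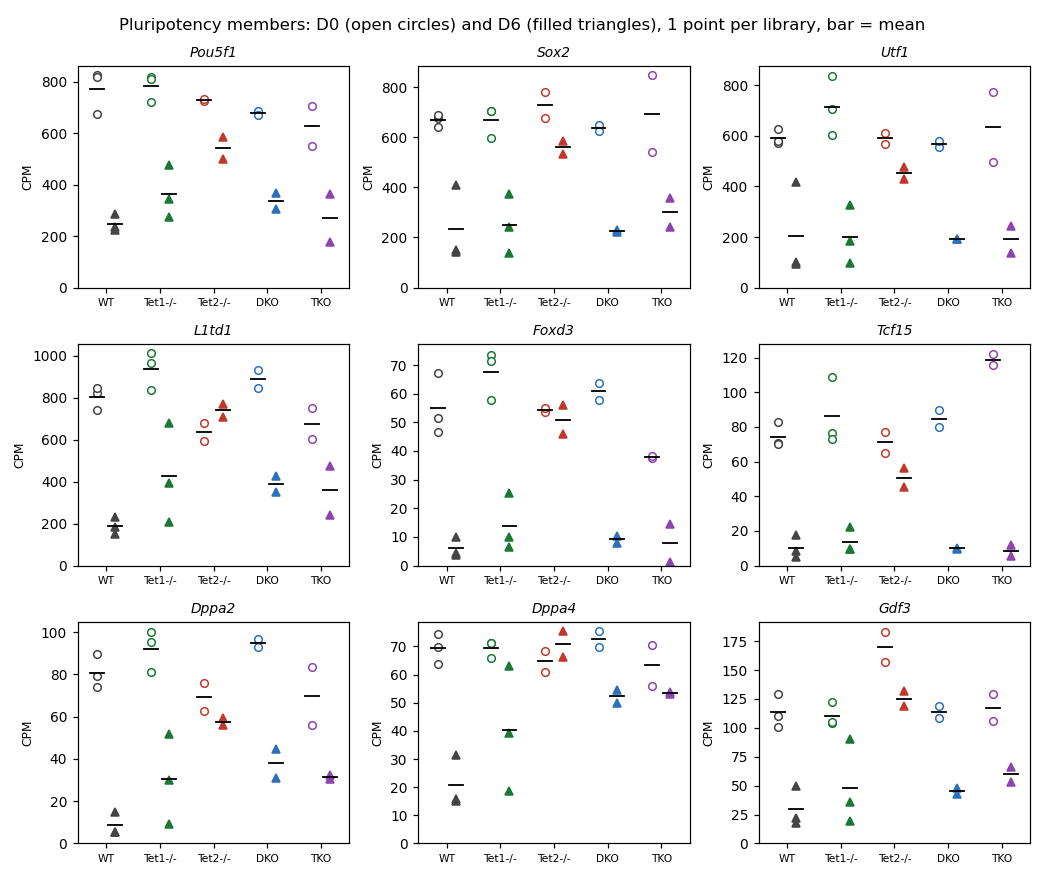
CPM of 9 pluripotency members in every library at D0 (open circles) and D6 (filled triangles), by genotype, with a bar at the mean. In Tet2-/- the D6 points stay near the D0 points by selection, and for Foxd3 and Tcf15 the D6 points of every other genotype lie below both Tet2-/- points.

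The naive factors were not in the set. Of 17 naive pluripotency genes, 15 passed the WT threshold and 0 became members, because they fell in Tet2-/- too, with a median change of -1.51 over those 15. Esrrb, a nuclear receptor of the naive network, went from 936 ± 7.63 to 312 ± 24.5 CPM (SD, n = 2) in Tet2-/- and from 789 ± 31.1 to 114 ± 86.9 CPM (SD, n = 3) in WT. Klf4 went from 309 ± 11.9 to 69.1 ± 3.84 CPM (SD, n = 2) in Tet2-/-. By edgeR 17 of 17 naive genes were called lower in Tet1-/-, 17 in DKO and 14 in TKO. Of all tested genes, 11.2%, 10.6% and 8.63% were called lower in the same order. Of 10 core pluripotency genes, 5 passed the WT threshold and 4 of them (Pou5f1, Sox2, Utf1 and L1td1) were members, and of 15 genes of the LIF receptor and STAT3 pathway 4 passed it and 0 were members. Both Tet2-/- clones nevertheless had the highest summed naive level at D6, 1374 and 1477 CPM, against 486 to 1047 CPM in the other D6 libraries.

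The set holds Tet2 itself, which has to be read with the edit. The guide used against Tet2 matches chromosome 3, 133148617 to 133148639 of mm9 on the minus strand, in a coding exon (exon 3 of transcript Tet2-202 and exon 1 of Tet2-201). The site is shown because reads of Tet2 are still counted in the edited cells, with the PAM in capitals.
Tet2 guide site: gaaagtgccaacagatatccAGG
Tet2 was at 90.8, 91.0 and 84.6 CPM at D0 in WT O4.1, O4.2 and O4.13 and at 13.9, 16.9 and 13.2 CPM at D6. In Tet2_KO_3.10 and Tet2_KO_3.11 it was at 19.5 and 21.3 CPM at D0 and 16.2 and 16.95 CPM at D6, so its D6 level was that of WT and its starting level was low. In DKO_5.11 and DKO_5.12 it was at 51.8 and 20.8 CPM at D0, and in TKO_8.4 and TKO_8.12 at 40.1 and 7.51 CPM, the widest splits between clones among the D0 groups. Transcript counts do not check the loss of the protein. Tet2 fell by 2.87 on the log2 scale in Tet1-/- (SE 0.41, edgeR adjusted p = 7.27e-06), where the gene is intact.

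Of 6 chromatin and nuclear members (Tet2, Kat2b, Trps1, Bnc2, Mkrn1 and Noc3l), 6 were called lower in Tet1-/-, 6 in DKO and 4 in TKO. Bnc2, a zinc finger protein of the basonuclin family, was at 35.2 and 40.7 CPM in Tet2-/- at D6, against 2.39, 5.39 and 3.15 CPM in WT O4.1, O4.2 and O4.13. It reached at most 16.3 CPM, in Tet1-/- clone 2.4, among the libraries of the other knockouts. Its fitted changes were -2.22 in Tet1-/-, -2.87 in DKO and -2.55 in TKO. Kat2b, the acetyltransferase PCAF, was at 57.8 and 56.6 CPM in Tet2-/- at D6 and at 16.9 to 45.0 CPM in all other D6 libraries, and fell by 1.42, 1.31 and 1.05 on the log2 scale in Tet1-/-, DKO and TKO. Mkrn1, a RING-type ubiquitin ligase, was at 762 CPM in WT O4.2 and 196 and 271 CPM in O4.1 and O4.13, and at 1072 and 1188 CPM in Tet2-/-.

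A group of 13 genes named or classed as zinc finger genes was set apart from Bnc2 and Trps1, which also encode zinc finger proteins, were counted above and were called lower in each of the other knockouts. The 13 were Zfp936, Zfp819, Zfp600, Zfp459, Zfp534, Zfp428, Zbtb8a, Gm13242, Gm13247, Gm14393, Gm10324, Gm14124 and 2410141K09Rik. Many genes of this type carry a KRAB domain and lie in clusters of recent duplicates that bind and silence transposable elements. Lying on 1 chromosome of mm9 with less than 1 Mb between each gene and the next were Gm13242, Gm13247, Zfp600 and Zfp534 (chromosome 4, 145104787 to 147076662), Zfp936 and Zfp819 with the members Gm2381 and EU599041 (chromosome 7, 50072199 to 50873655), and Gm10324, 2410141K09Rik and Zfp459 (chromosome 13, 66139239 to 67514893). Likeness of their transcripts was not measured here, and where genes of this type are alike in sequence their reads may have been split, so the values of single genes are uncertain. Promoters of Gm13242 and Zfp600, and below those of Sox2, Dazl and Stk31, are shown as the 250 bases before the RefSeq start on GRCm38.p6, 5′ to 3′ on the gene's strand, with each CG in capitals, since TET enzymes and DNA methylation act on CpG.
Gm13242 (RefSeq symbol Zfp980), chr4:145670447-145670696, plus strand: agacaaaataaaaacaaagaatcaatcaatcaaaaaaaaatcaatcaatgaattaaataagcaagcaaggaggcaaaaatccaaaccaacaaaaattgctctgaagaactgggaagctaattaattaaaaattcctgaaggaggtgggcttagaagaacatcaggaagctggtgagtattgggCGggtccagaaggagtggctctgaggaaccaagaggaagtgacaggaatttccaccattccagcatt
Zfp600, chr4:146156577-146156826, plus strand: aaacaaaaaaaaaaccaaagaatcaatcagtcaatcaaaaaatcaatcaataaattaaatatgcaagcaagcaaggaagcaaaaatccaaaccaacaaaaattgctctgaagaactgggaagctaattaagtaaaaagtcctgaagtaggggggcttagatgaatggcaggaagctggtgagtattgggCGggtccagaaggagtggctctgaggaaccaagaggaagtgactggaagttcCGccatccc
These 2 windows shared 226 identical bases over 256 aligned columns (88.3%) and held 1 and 2 CpG.

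In Tet2-/- 7 of the 13 zinc finger members had a D6 mean above the D0 mean, which selection allowed, and the median change over the 13 was 0.02. Gm13242 was at 23.2 and 27.3 CPM at D0 and 43.5 and 39.7 CPM at D6 in Tet2_KO_3.10 and Tet2_KO_3.11, and at 7.99, 19.8 and 5.99 CPM at D6 in WT O4.1, O4.2 and O4.13. Gm13247, at 25.6 and 28.1 CPM in Tet2-/- at D0, was at 47.2 and 38.4 CPM at D6, a level that DKO (57.8 and 61.1 CPM) exceeded. Zfp936 was at 41.2 and 42.3 CPM in Tet2-/- at D6 and at 5.92, 5.08 and 3.25 CPM in WT, and its Tet1-/- clones spread from 6.38 CPM in 2.2 to 45.6 CPM in 2.4. In the test, 10 of the 13 were called lower in Tet1-/-, 9 in DKO and 5 in TKO. Gm13242 was called in none (-0.97, -0.83 and -0.37 in Tet1-/-, DKO and TKO), nor was Zfp534 (-0.79, -0.49 and -0.11) or Gm14124 (-0.51, -0.85 and -0.70). Gm13242 and Zfp534 in Tet1-/- (edgeR adjusted p = 0.0207 and 0.0191) and Gm14124 in DKO (0.0458) missed the fold threshold alone. Zfp936 was called lower in Tet1-/-, DKO and TKO, with -1.75, -1.93 and -1.81, while Zfp600 was called in Tet1-/- (-1.68) and DKO (-1.26) and not in TKO (-0.49).

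Germline roles were held by 11 members: Dazl, Mov10l1, Stk31, Tex11, Tex14, Psma8, Ddx43, Ccnb1ip1, Clgn, Mageb16 and Gm4975, the last placed here with less certainty. Of these, 10 of 11 were called lower in Tet1-/-, 5 in DKO and 1 (Clgn) in TKO, where 1 more (Gm4975) was called higher. The fitted medians were -1.43 in Tet1-/-, -0.95 in DKO and 0.21 in TKO, and the TKO median was below 0, at -0.18 at the lowest, without TKO_8.4 or TKO_8.12 at D0 or TKO_8.4 at D6. The groups by role were made after the values were seen, so no test compares them. Promoters of Dazl and Stk31 are shown as examples of germline windows, with Sox2 for comparison.
Dazl, chr17:50293621-50293870, minus strand: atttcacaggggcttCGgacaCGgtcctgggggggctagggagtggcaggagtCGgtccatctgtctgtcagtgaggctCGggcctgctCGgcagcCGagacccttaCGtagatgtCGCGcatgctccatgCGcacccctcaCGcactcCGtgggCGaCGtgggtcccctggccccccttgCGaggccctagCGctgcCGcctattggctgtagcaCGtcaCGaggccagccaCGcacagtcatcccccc
Stk31, chr6:49395289-49395538, plus strand: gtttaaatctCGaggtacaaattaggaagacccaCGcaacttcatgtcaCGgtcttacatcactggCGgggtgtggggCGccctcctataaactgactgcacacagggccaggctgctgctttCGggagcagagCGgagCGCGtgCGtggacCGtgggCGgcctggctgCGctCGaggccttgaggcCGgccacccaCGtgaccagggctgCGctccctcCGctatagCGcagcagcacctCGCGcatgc
Sox2, chr3:34649745-34649994, plus strand: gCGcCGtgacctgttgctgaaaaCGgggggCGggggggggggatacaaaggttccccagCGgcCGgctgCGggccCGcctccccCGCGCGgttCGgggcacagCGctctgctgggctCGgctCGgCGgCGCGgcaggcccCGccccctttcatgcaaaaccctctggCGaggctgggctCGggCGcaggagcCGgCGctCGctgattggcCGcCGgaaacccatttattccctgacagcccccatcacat
The windows of Dazl, Stk31 and Sox2 held 20, 21 and 27 CpG.

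Dazl, an RNA-binding protein needed in germ cells, was at 11.4, 26.8 and 16.6 CPM at D0 and 1.52, 9.51 and 2.26 CPM at D6 in WT O4.1, O4.2 and O4.13. In Tet2-/- it was low on both days, at 3.82 and 3.19 CPM at D0 and 3.53 and 3.84 CPM at D6. In TKO_8.4 and TKO_8.12 it went from 6.35 and 6.79 CPM to 14.6 and 19.13 CPM, so that both D6 libraries were above both D0 libraries and above every D6 library outside TKO. The fitted change of Dazl was -1.93 (SE 0.45, edgeR adjusted p = 0.000991) in Tet1-/-, -0.89 (SE 0.52, adjusted p = 0.155) in DKO and 1.18 (SE 0.54, adjusted p = 0.073) in TKO. With the clone as a block the TKO change was 1.17 with an edgeR adjusted p of 0.00552.

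Stk31, a kinase-like protein with a Tudor domain found in spermatogonia, was at 4.32 and 3.59 CPM in Tet2-/- at D6 and at 1.25, 3.31 and 1.85 CPM in WT O4.1, O4.2 and O4.13. It stood higher in DKO, at 8.53 and 8.45 CPM, and in TKO, at 8.49 and 19.6 CPM in TKO_8.4 and TKO_8.12. Only Tet1-/- passed the test, with -1.23 (edgeR adjusted p = 0.0111), against -0.60 in DKO (0.287) and 0.66 in TKO (0.251). Gm4975 was at 2.88 and 2.01 CPM at D0 and 11.7 and 6.58 CPM at D6 in TKO_8.4 and TKO_8.12, a change of 1.72 (SE 0.40, edgeR adjusted p = 0.00177). In Tet2-/- it was at 8.64 and 6.73 CPM at D0 and 7.85 and 7.21 CPM at D6, against 0.978, 2.16 and 1.13 CPM at D6 in WT.

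Tex14, a protein of the intercellular bridges of germ cells, was at 17.5 and 19.4 CPM in Tet2-/- at D6 and at 29.1 and 19.5 CPM in TKO_8.4 and TKO_8.12, against 4.89, 13.9 and 6.71 CPM in WT. Clgn, a testis chaperone of the endoplasmic reticulum, followed another course. It was at 35.7 and 39.1 CPM in Tet2-/- at D6 and did not exceed 13.7 CPM in any other D6 library, and it fell by 2.34, 2.503 and 1.83 on the log2 scale in Tet1-/-, DKO and TKO, each called by edgeR. Mov10l1, a helicase of the piRNA pathway, was called lower in Tet1-/- (-2.01) and DKO (-1.19) and not in TKO (-0.83). It was at 5.71 and 6.43 CPM in Tet2-/- at D6, below both DKO libraries at 12.8 CPM and both TKO libraries at 8.93 and 7.98 CPM.

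**Figure D5:**
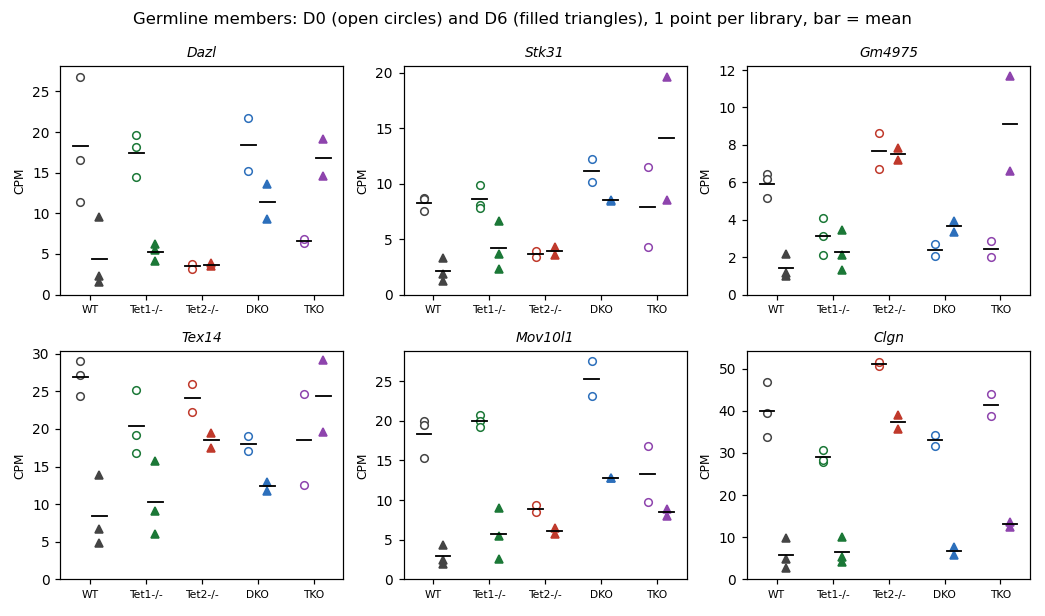
CPM of 6 germline members in every library at D0 (open circles) and D6 (filled triangles), by genotype, with a bar at the mean. In TKO the D6 points of Dazl (14.6 and 19.13 CPM) and Gm4975 (11.7 and 6.58 CPM) lie above the D0 points, while Clgn is at 12.5 to 13.7 CPM there and at 35.7 and 39.1 CPM in Tet2-/- at D6.

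The 12 neuronal and cytoskeletal members included Nefh, Fez1, Uchl1, Scn3a, Rtn1, Nrsn2, Prune2, Soga3, C77370 and Nphs1. The test called 12 of 12 lower in Tet1-/-, 11 in DKO and 10 in TKO, with fitted medians of -1.90, -2.29 and -1.92. Nefh, the heavy neurofilament chain, had the largest WT fall of the set, from 59.3, 79.9 and 66.2 CPM to 1.90, 11.4 and 3.46 CPM in O4.1, O4.2 and O4.13, a change of -3.66. In Tet2-/- it went from 39.0 and 32.9 CPM to 24.4 and 27.0 CPM, so both its start and its end lay below the WT D0 level. Nrsn2, a neuronal vesicle membrane protein, was at 3.85 and 4.90 CPM in Tet2-/- at D6, against at most 1.27 CPM, in WT O4.2, in every other D6 library. Uchl1, a ubiquitin hydrolase of neurons that ESCs also express, was at 64.3 and 80.0 CPM in Tet2-/- at D6 and at 11.7, 60.7 and 22.04 CPM in WT. It fell by 2.02, 2.13 and 1.49 on the log2 scale in Tet1-/-, DKO and TKO.

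Signalling and surface genes numbered 13, among them Pdgfc, Syk, Stat4, Prex2, Cd34, Itgam, Mrc1, Tfpi, Rln3, Pdyn, Zfyve28 and Rnf125. Of these, 11 were called lower in Tet1-/-, 10 in DKO and 8 in TKO. Zfyve28, a FYVE-domain protein of endosomes, was at 8.33 and 10.98 CPM in Tet2-/- at D6 and at 0.217, 2.81 and 0.479 CPM in WT O4.1, O4.2 and O4.13, and changed by -3.23, -3.89 and -3.04 in Tet1-/-, DKO and TKO. Prex2, an exchange factor for Rac, was called in none of them (-0.84, -0.32 and 0.62). In Tet1-/- it missed the fold threshold alone (edgeR adjusted p = 0.0191). At D6 it was at 22.4 and 21.04 CPM in Tet2-/-, at 20.6 and 13.5 CPM in DKO_5.11 and DKO_5.12 and at 16.1 and 9.95 CPM in TKO_8.4 and TKO_8.12, above all WT libraries (4.24 to 6.24 CPM) in each case. Pdgfc, a platelet-derived growth factor, was at 12.8 CPM at D0 in WT O4.2 against 39.0 and 38.8 CPM in O4.1 and O4.13, and at 44.6 and 57.7 CPM in Tet2-/- at D6.

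Metabolic and transport genes numbered 11 (Gsta4, Akr1b3, Mat2a, Bdh2, Pipox, Slc7a3, Slc15a1, Slc28a1, Smpdl3b, Liph and Pla2g10), of which 10 were called lower in Tet1-/-, 9 in DKO and 7 in TKO. Slc7a3, a cationic amino acid transporter, was at 239.6 and 246 CPM in Tet2-/- at D6 against 35.8, 99.8 and 43.1 CPM in WT O4.1, O4.2 and O4.13. Its Tet1-/- clones ranged from 60.6 CPM in 2.2 to 246 CPM in 2.4, and it was called in no knockout tested (-0.999, -0.84 and -0.88). In Tet1-/- it missed the fold threshold alone (edgeR adjusted p = 0.0365). Gsta4, a glutathione transferase, was at 337 and 361 CPM in Tet2-/- at D6 and at 72.0 to 201 CPM in all other D6 libraries, and fell by 1.74, 1.88 and 1.27 on the log2 scale. Mat2a, which makes S-adenosylmethionine, the methyl donor, was at 292 and 275 CPM in Tet2-/- and 113 to 116 CPM in WT at D6, and Tet1-/- clone 2.4 reached 278 CPM. Its fitted changes were -1.12, -1.51 and -1.66 in Tet1-/-, DKO and TKO, and with the clone as a block the Tet1-/- change of -0.98 fell short of the fold threshold.

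The non-coding transcripts and pseudogenes were 2410007B07Rik, C430002E04Rik, Gm19705, Gm2381 and Gm6644, with 4 of 5 called lower in Tet1-/-, 4 in DKO and 1 in TKO. The pseudogene Gm6644 had the same count as Akr1b3, an aldose reductase, in 19 of 24 libraries and differed by at most 4 counts in the rest, so these 2 members share their reads and stand for 1 measurement. The last 9 members (Btbd11, Prss35, Mreg, EU599041, D630023F18Rik, Prrt3, 4930591A17Rik, Ccdc113 and Gm11837) gave 8 called lower in Tet1-/-, 9 in DKO and 4 in TKO. Mreg, a regulator of melanosome transport, was at 147 and 167 CPM in Tet2-/- at D6 and at 32.1, 129 and 36.3 CPM in WT O4.1, O4.2 and O4.13. 4930591A17Rik lay near the counting floor at D6, with 0, 0.347 and 0.0342 CPM in WT and 0.177 and 0.107 CPM in Tet2-/-.

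The changes of the members were next compared between the knockouts that did not choose them. Between DKO and Tet1-/- no member was called by edgeR (0% of all genes), also 0 at an unadjusted p under 0.05 with the fold threshold and 0 by DESeq2. Between TKO and Tet1-/-, 8 members had a change that was higher in TKO and 0 a lower one (1.48% of all genes were called higher and 0.786% lower). At an unadjusted p under 0.05 with the fold threshold 18 were higher, and DESeq2 called 11. Shares over all genes, here and elsewhere, are those of adjusted edgeR calls, so unadjusted and DESeq2 counts have no share beside them. The 8 were 4930591A17Rik, Gm4975, Ccdc113, Dazl, C430002E04Rik, Gm19705, D630023F18Rik and Slc28a1. For Dazl the difference was 3.12 (SE 0.70, edgeR adjusted p = 0.0237), and for Gm4975 2.35 (SE 0.52, adjusted p = 0.0232). Between TKO and DKO no member was called (0.032% of all genes), with 10 higher at an unadjusted p under 0.05 with the fold threshold, and 2 called by DESeq2. With the clone as a block 5 members were called: Dazl (2.85, edgeR adjusted p = 0.0122), Ccdc113 (2.44, adjusted p = 0.0445) and C430002E04Rik (1.70, adjusted p = 0.046) kept their call, the 5 others of the 8 lost it (adjusted p from 0.0574 to 0.117), and Tet2 (2.16, adjusted p = 0.0418) and Stk31 (1.76, adjusted p = 0.0483) gained one. The count of 8 was 2 without Tet1-/- clone 2.3 at D0, 4 without 2.4 at D0, 3 without 2.2 at D6, 14 without 2.4 at D6 and 3 without TKO_8.4 at D6, and the TKO and DKO count of 0 was 1 without TKO_8.4 at D0 or WT O4.2 at D6.

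Starting levels differed as well. At D0, 7 members were lower in TKO than in Tet1-/- by edgeR (1.6% of all genes were called lower): 4930591A17Rik (-3.23), C430002E04Rik (-1.60), Prex2 (-1.63), Tet2 (-1.92), Gm19705 (-1.76), Slc28a1 (-1.302) and Pdgfc (-1.48), with adjusted p from 0.00785 to 0.0407. Of the 8 members whose change differed, 4 (4930591A17Rik, C430002E04Rik, Gm19705 and Slc28a1) were among these 7. Prex2, for example, was at 7.49 and 7.44 CPM in TKO at D0 and at 18.2, 24.9 and 26.3 CPM in Tet1-/-. Between TKO and DKO at D0 only 4930591A17Rik was called (-3.55, edgeR adjusted p = 0.027, 0.179% of all genes called lower), and between DKO and Tet1-/- 0 were called (0% of all genes), with 1 at an unadjusted p under 0.05 and the fold threshold and 0 by DESeq2. The count of 7 was 3 without Tet1-/- clone 2.3 and 4 without 2.4 at D0. The count of 1 was 0 without DKO_5.11 or DKO_5.12 at D0, 2 without TKO_8.4 or TKO_8.12 on either day or WT O4.1 at D6, and 3 without WT O4.2 or Tet1-/- clones 2.2 or 2.4 at D6.

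At D6, 3 members stood higher in TKO than in Tet1-/- by edgeR (0.62% of all genes were called higher). These were Gm4975 by 2.01 (SE 0.36, adjusted p = 0.0194), Ccdc113 by 1.77 (SE 0.36, adjusted p = 0.0283) and Stk31 by 1.78 (SE 0.43, adjusted p = 0.045), and DESeq2 called 8. Ccdc113, a centriolar satellite protein of ciliated cells, was at 2.54 and 2.296 CPM in TKO_8.4 and TKO_8.12 at D6 and at 0.673 to 0.807 CPM in Tet1-/-. Between DKO and Tet1-/- at D6 0 members were called by edgeR (0.00639% of all genes), with 1 lower and 3 higher at an unadjusted p under 0.05 and the fold threshold and 0 by DESeq2. Between TKO and DKO at D6 0 were called (0% of all genes), with 4 higher at an unadjusted p under 0.05 and the fold threshold and 1 by DESeq2. The count of 3 at D6 was 0 without Tet1-/- clone 2.2, 1 without clone 2.1 or without TKO_8.12, 6 without clone 2.4, and 8 without WT O4.2 or without TKO_8.4.

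Promoter sequence, which the rule did not use, was described over the 67 members with a RefSeq window of the 250 bases before the start. Their median was 7 CpG (range 0 to 51), against 15 over the 12174 tested genes with a window and 6 over all 27025 genes with one. An observed-to-expected CpG ratio of at least 0.6 was reached by 21 of the 67 (31.3%), by 63.5% of the tested genes and by 34.5% of all genes with a window. By role, the median was 3 CpG in the 13 zinc finger windows (3 of 13 at that ratio), 18 in the 8 germline windows (5 of 8, or 62.5%), 22 in the 5 chromatin and nuclear windows (3 of 5) and 14 in the 5 pluripotency windows (3 of 5). It lay from 0 to 8.5 CpG in the other groups, and no test compared the groups. The octamer ATTTGCAT, the letters that POU factors such as Oct4 recognise, occurred on either strand in 6 windows (8.96%, in Mageb16, Liph, Pipox, Prrt3, Gm14124 and Zfp428) and in 1.40% of the tested genes. The E-box CACGTG occurred in 5 windows (7.46%, in Mov10l1, Stk31, Foxd3, Zfp459 and Zfp819) and in 8.35% of the tested genes. These are matches of letters and not sites of binding.

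On mm9, 83 members could be placed, 11 of them on chromosome 4 (13.3%, against 6.27% of the 14280 tested genes placed) and 10 on chromosome 7 (12.05%, against 7.91%). Besides the zinc finger clusters, neighbouring members within 1 Mb included Dppa4 and Dppa2 on chromosome 16, L1td1 and Foxd3 on chromosome 4, and Tcf15 and Nrsn2 on chromosome 2. Genes in 1 cluster may not be independent of each other, so these shares are descriptions.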

How the data were processed

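RNA-seq read counts per RefSeq transcript line were deposited by the authors for 24 libraries. Per the labels and methods, reads were aligned with STAR 2.5.1 to mm9. The methods describe normalisation to ERCC spike-ins and testing with DESeq, where the labels name DESeq2, and the deposited table holds 0 ERCC spike-in lines. The counting tool is uncertain, since the deposited tables are named for featureCounts and a supplementary note names HTSeq, and the strand setting is not given in the sources used here. The deposited counts were used as they stand, through 31928 lines and 22926 symbols, with the first line kept for the 4911 symbols on several lines, 25 members among them. All sample columns were mapped by clone name (0 unmapped). In 1 D6 label the point in the name of DKO_5.12 is left out.

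Members and gene lists were chosen with earlier results of these data known. CPM used library totals. edgeR 4.0.16 (R 4.3.3; TMM factors 0.918 to 1.10, filterByExpr with a minimum count of 10, quasi-likelihood test) fitted all 24 libraries with 1 coefficient per genotype and day, so groups of 2 clones share 1 estimate of the spread. DESeq2 1.42.0 was an alternative. The fitting script was tested on simulated data. Sequences came from the RefSeq promoter table (GRCm38.p6) and from mm9 with gencode vM1, read with Python 3.11.15, pandas 2.3.3 and Biopython 1.88, and figures were drawn with matplotlib 3.10.9.

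Clone names in the labels pair D0 and D6 libraries. Deviations from group means correlated at 0.0806 to 0.204 over 11 same-clone pairs and at -0.204 to 0.128 over 19 other pairs, where in groups of 2 clones the latter are by construction the negatives of the former. Genes with values of their own were those on the lists, the 15 highest in WT at D0, the 10 with the largest WT fall, the 3 most and 3 least changed in each tested knockout, the 3 on each side of a threshold, and up to 5 called per difference. Zfp600, Tex14, Mageb16, Slc28a1 and Pdgfc were added after their values were seen, as were the roles, and the remaining members are named by role only, except some that are not reported here. Counting limits cover counting error only. No sequence of chromosome 18 members is shown.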

Additional observations from a re-analysis of the deposited data

Results flagged for a closer look

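The change from D0 to D6 differed between TKO and Tet1-/- for 8 of the 89 genes, by the test of the difference itself in edgeR with Benjamini-Hochberg adjustment over 15639 genes. In each the change was higher in TKO. The difference in log2 change, TKO minus Tet1-/-, was 4.72 for 4930591A17Rik (SE 1.05, edgeR adjusted p = 0.0232) and 3.12 for Dazl (SE 0.70, adjusted p = 0.0237). With 1 library left out these ran from 2.07 to 5.43 and from 2.86 to 3.34. The difference was 2.60 for Gm19705 (SE 0.64, edgeR adjusted p = 0.0346), 2.35 for Gm4975 (SE 0.52, adjusted p = 0.0232) and 2.24 for Ccdc113 (SE 0.50, adjusted p = 0.0236). The other three were D630023F18Rik at 2.101 (SE 0.54, edgeR adjusted p = 0.0414), C430002E04Rik at 1.98 (SE 0.46, adjusted p = 0.0268) and Slc28a1 at 1.89 (SE 0.49, adjusted p = 0.043). With the clone, which D0 and D6 libraries share, as a block, Dazl, Ccdc113 and C430002E04Rik kept their call, while 4930591A17Rik (4.53, edgeR adjusted p = 0.0645), D630023F18Rik (1.86, adjusted p = 0.117), Gm19705 (2.24, adjusted p = 0.0662), Gm4975 (2.298, adjusted p = 0.0574) and Slc28a1 (1.497, adjusted p = 0.0644) lost it.

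Levels behind these values were low. 4930591A17Rik was at 0.552 and 0.266 CPM in TKO at D0 and at 3.61 to 4.33 CPM in Tet1-/-, and C430002E04Rik at 4.46 and 5.69 CPM against 12.2 to 17.1 CPM. Gm19705 and Slc28a1 were also called lower in TKO at D0, while Dazl, Gm4975, Ccdc113 and D630023F18Rik were not. No group held more than 3 libraries, so single outlying libraries were not tested for.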

How the results depend on the processing

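The number of genes that met the rule was 243 with a pseudocount of 0.1 CPM (82 shared with the 89), 43 with one of 5 CPM (39 shared), and 68 to 138 with 1 library left out. TMM scaling gave 84 genes (65 shared) and summing all lines of a symbol 89 (76 shared). Members called lower in TKO were 21 to 51 with 1 library left out (21 without TKO_8.12 at D6), against 66 to 87 in Tet1-/- and 56 to 74 in DKO. Called higher in TKO were 2 with library totals, with DESeq2, with the clone as replicate block and in a fit of the 3 tested genotypes alone, and 1 to 2 with 1 library left out. For the change in TKO against Tet1-/-, the replicate block gave 5 members, the fit of 3 genotypes 4, and leaving out 1 library 2 to 14, and against DKO DESeq2 gave 2 and leaving out 1 library 0 to 1. At D6, TKO against Tet1-/- gave 8 with DESeq2 and 0 to 8 with 1 library left out, and TKO against DKO 1 with DESeq2. At D0, TKO against Tet1-/- gave 11 with DESeq2, 3 in the fit of 3 genotypes and 3 to 10 with 1 library left out, and TKO against DKO 4 with DESeq2, 2 without the filter, 0 in the fit of 3 genotypes and 0 to 3 with 1 library left out. The cause was not tested. Where leaving out 1 library left a single clone, that clone was assumed to vary like the others.

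In TKO the fitted change turned its sign with 1 library left out for 4930591A17Rik (-3.02 to 0.36), Ccdc113 (-0.083 to 0.31), D630023F18Rik (-0.31 to 0.77), Gm19705 (-0.64 to 0.35), Stk31 (-0.10 to 1.57), Tet2 (-1.66 to 0.73), Tex11 (-0.011 to 1.09), Zfp534 (-0.39 to 0.13), Mageb16 (-0.24 to 1.29), Slc28a1 (-0.35 to 0.61) and Tex14 (-0.18 to 0.76), none of them called, and Zfp534 was at 0.074 with library totals. The replicate block changed 10 of the 164 calls of named genes that it could be fitted for, 5 of them the differences between TKO and Tet1-/- named above: Dazl in TKO (1.17) and Gdf3 in TKO (-1.15) gained one, and Gm13247 in Tet1-/- (-0.81), Mat2a in Tet1-/- (-0.98) and Nrsn2 in TKO (-1.97) lost it. The 164 hold only differences called in the main fit, so the differences that Tet2 and Stk31 gained with the block are not among them. Of 5414 alternatives of 175 such results, 5164 kept direction and call, 194 lost a call, 39 gained one and 17 turned sign, 0 of them called ones.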

Other observations

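A list of 23 germline genes, of which 22 were tested, held 4 of the 89 genes (Dazl, Stk31, Mov10l1 and Tex11). Over the 22, edgeR called 10 lower and 2 higher in Tet1-/-, 5 lower and 2 higher in DKO, and 0 lower and 6 higher in TKO. Of all tested genes 11.2%, 10.6% and 8.63% were called lower and 19.9%, 18.6% and 16.8% higher in Tet1-/-, DKO and TKO. Their fitted median changes were -0.73, 0.12 and 0.82, against 0.00, -0.01 and 0.01 over all tested genes. The list was drawn up with earlier results of these data known, and no test compared it with other genes.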
